A study of Arabidopsis thaliana with 12 samples.

Results

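The cytosolic ribosome of Arabidopsis thaliana carries its protein-synthesising centre in the large, or 60S, subunit. The genes described are 37 nuclear genes listed for proteins of that subunit. They were taken by gene identifier from a list drawn up with earlier results of these data known, and are 37 of the 25835 genes in the tables. All 37 were present in every one of the 12 libraries, with a lowest count of 23, and all 37 were tested. RefSeq gives a name to 18 of them, and the other 19 are called here by identifier. They lie on all 5 chromosomes, with 10, 9, 10, 4 and 4 genes on chromosomes 1 to 5.

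Most ribosomal proteins of plants are encoded by small families of near-identical genes, or paralogues, whose products can usually stand in for each other. Because every new ribosome needs 1 copy of most of these proteins, their mRNAs are abundant in growing tissue, and their production is tied to growth. Their translation is known in plants to respond to light, sugar and the TOR kinase. The factor eIF4E binds the 5′ cap of an mRNA and helps to bring it to the ribosome.

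The libraries came from whole seedlings of the Columbia ecotype, 9 days old, that were frozen at 16 h after dawn, at the end of the light period. Plants grew at 22 °C with 16 h of light and 8 h of darkness. The 4 groups, with 3 replicates each, were total mRNA of the eif4e mutant, total mRNA of wild type, ribosome-bound mRNA of the mutant and ribosome-bound mRNA of wild type, all from poly(A) RNA. Ribosomes were immunopurified by a cited method that, as published, pulls on an epitope-tagged RPL18. The labels name neither the mutant allele nor the tag, its promoter or the plant line. They do not say whether replicates were separate cultures, so the tests see only how the 3 samples of a group vary, which may be technical.

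The libraries held 17058704 to 24673644 counts. EIF4E (AT4G18040) was at 8.28, 24.2 and 8.29 FPKM in mutant total mRNA, against 45.8, 44.0 and 44.2 FPKM in wild type. On ribosomes it was at 12.3, 11.6 and 13.9 FPKM in the mutant and at 71.8, 92.9 and 87.2 FPKM in wild type. FPKM is the read count scaled by the length of the gene and the reads of the library. EIF4E was lower in every mutant library, and mutant total replicate 2 stood apart from the other two mutant libraries at 24.2 FPKM. All 15 marker genes of seedling tissues were detected in each group. The 4 green tissue markers, among them RBCS1A and CAB1, summed to 21858 to 25972 FPKM in mutant and 13668 to 16203 FPKM in wild-type total mRNA, and all 4 rose. The 5 root markers summed to 1579 to 1978 FPKM in mutant and 2200 to 2813 FPKM in wild-type total mRNA, and 2 of them fell. PYK10 alone was at 1551 to 1946 FPKM in mutant and 2154 to 2763 FPKM in wild type, so these sums mostly show that gene. The 5 dividing-cell markers summed to 36.7 to 52.6 FPKM in mutant and 66.1 to 73.3 FPKM in wild-type total mRNA, where 0 of 5 passed edgeR's test and 4 of 5 had an unadjusted p under 0.05, all lower. On ribosomes the same 5 summed to 37.5 to 53.5 FPKM in the mutant and 70.2 to 74.2 FPKM in wild type, and 4 of them fell. STM, the 1 shoot meristem marker, was at 6.06 to 6.82 FPKM in mutant and 4.02 to 5.65 FPKM in wild-type total mRNA and rose. On ribosomes STM was at 5.02 to 6.27 FPKM in the mutant and 6.17 to 6.70 FPKM in wild type. Its log2 change there was -0.18 and did not pass. The difference between its ribosome-bound and total changes was -0.76 and passed. The part of these marker differences in the results below was not tested.

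**Figure D1:**
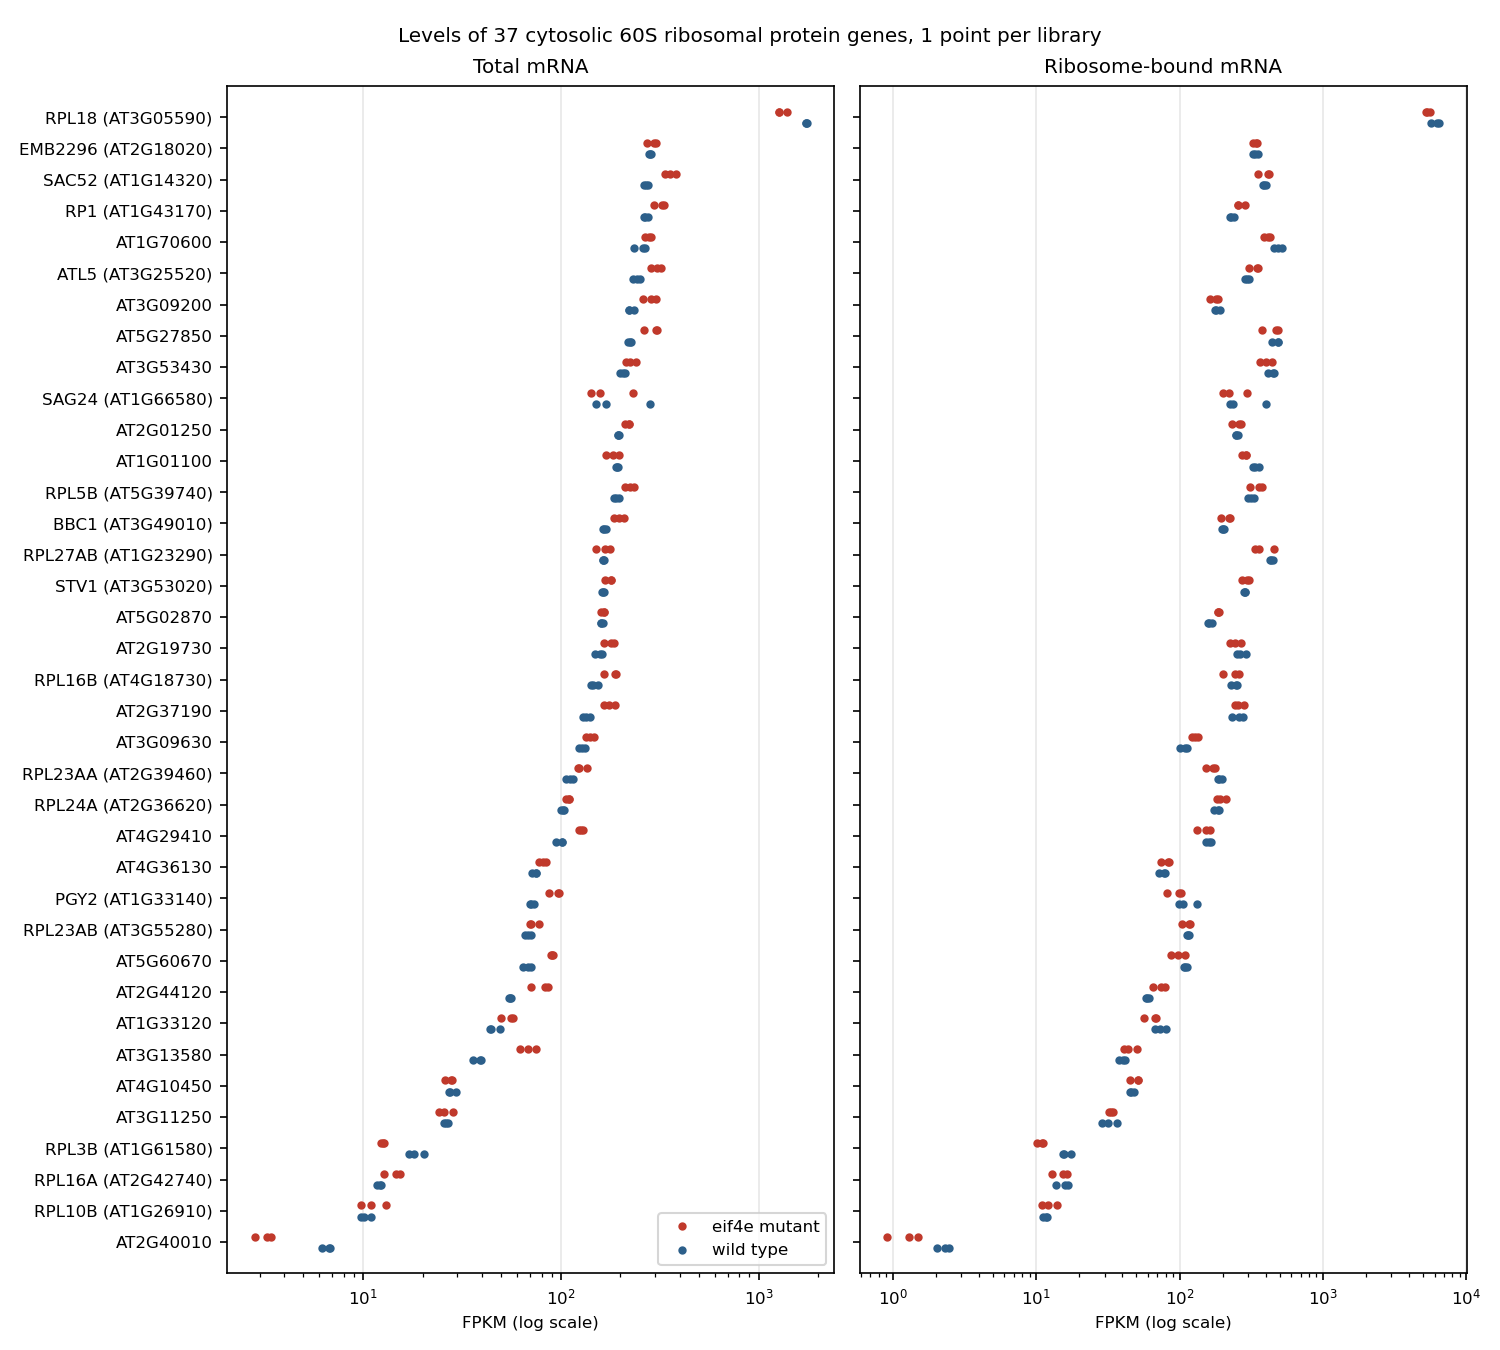
FPKM of each of the 37 genes in each library on a log axis, for total mRNA (left) and ribosome-bound mRNA (right), with mutant points above wild-type points and genes ordered by their wild-type mean in total mRNA. RPL18 (AT3G05590) stood far above the other 36 genes in every library, and AT2G40010 was the lowest, with mutant points below wild-type points in both panels.

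In total mRNA, 60S ribosomal protein genes were mostly higher in the mutant. Of the 37 genes, 24 rose, 3 fell and 10 did not pass the test, with a median log2 change of 0.28. The test was edgeR's quasi-likelihood test with Benjamini-Hochberg adjustment over all 19170 tested genes, and a gene passed with an adjusted p under 0.05. Among all tested genes 10.4% rose and 6.54% fell, and their median log2 change was -0.0035. The largest increase reached 0.97 on the log2 scale. Without wild-type total replicate 1 or mutant total replicate 3, 14 genes rose, and with replicate 1, 2 or 3 left out of every group 8, 11 and 8 rose and 0, 3 and 1 fell. With replicate 1, 2 or 3 left out, the median of the 37 genes exceeded that of all tested genes by 0.36, 0.30 and 0.28. Shares of all tested genes are not given for fits that left out libraries, so lower counts there are no result about these genes. With the replicate number as a block, 28 rose and 3 fell, against 16.8% and 15% of all tested genes in that fit, and AT5G02870, RPL24A, EMB2296 and AT3G53430 were added to those that rose. In these bulk seedlings, fewer cells of a type and less RNA per cell cannot be told apart.

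Library by library, the 36 genes other than RPL18 summed to 5171, 5689 and 5724 FPKM in mutant total mRNA, against 4744, 4836 and 4842 FPKM in wild type. The mutant sums lay above all wild-type sums. On ribosomes the same 36 genes summed to 6452, 7244 and 7418 FPKM in the mutant and to 7139, 7244 and 7303 FPKM in wild type, and these groups overlapped. Fitted changes are scaled by TMM, which centres the bulk of genes, whereas FPKM is scaled by reads alone. With the read total as the only scaling, the median of all tested genes in total mRNA was -0.11 on the log2 scale, that of the 37 genes was 0.17, and 14 genes rose and 3 fell. Counts of all tested genes with that scaling stand in the closing section. Over the settings tried, the median of the 37 genes exceeded that of all tested genes by 0.23 to 0.36. In FPKM, 25 of 37 genes had all 3 mutant total values above all wild-type values and 3 had them below, against 10.4% and 34.5% of all tested genes.

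On ribosomes, most of the genes did not pass the test. Of the 37, 5 rose and 3 fell, against 15.4% of all tested genes that rose and 12% that fell, and the median log2 change was 0.02. Scaled by the read total alone, 4 rose and 4 fell, with a median of -0.01 against -0.03 for all tested genes. With the replicate number as a block, 7 rose and 5 fell, against 20.9% and 20.4% of all tested genes in that fit. The block added RPL5B and AT3G13580 to those that rose and RPL23AA and AT1G70600 to those that fell. In a fit of only the ribosome-bound libraries 2 rose and 1 fell. Without mutant ribosome-bound replicate 3, 4 rose and 6 fell, and with replicate 1, 2 or 3 left out of every group 0, 2 and 2 rose and 0, 1 and 2 fell. With replicate 1, 2 or 3 left out, the median of the 37 genes differed from that of all tested genes by 0.05, 0.01 and -0.01. Shares of all tested genes are not given for the read total alone or for these fits with fewer libraries. Changed counts there are no result about these genes. All 3 ribosome-bound mutant values lay above all wild-type values for 4 genes and below them for 6, against 16% and 22.6% of all tested genes. The genes that passed at both levels in 1 direction were AT3G09630, ATL5, AT2G44120 and RP1 among those that rose and AT2G40010 and RPL3B among those that fell.

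The difference between the ribosome-bound change and the total change was tested directly. It was negative and past the threshold for 9 of the 37 genes and positive and past it for 0, with a median of -0.25 on the log2 scale. At an unadjusted p under 0.05, edgeR gave 20 negative and 0 positive differences, and the share of all tested genes at that p is not given here. At an adjusted p under 0.05, DESeq2 called 0 positive ones and limma on FPKM 0 or 1, depending on the pseudocount. On the negative side DESeq2 also called AT5G27850, AT2G19730, AT2G37190 and RPL16B, which edgeR did not. Shares of all tested genes are not given for DESeq2 or limma. By edgeR 4.03% of all tested genes passed in either direction, 2.35% on the negative side and 1.67% on the positive side. The 9 genes were AT3G13580, PGY2, AT5G60670, AT1G33120, AT4G29410, SAC52, RPL23AA, AT3G09200 and AT1G70600. All 9 rose in total mRNA, and on ribosomes their log2 changes ran from -0.20 to 0.23 with adjusted p of 0.055 to 0.89 by edgeR without the block. The count depended on the fit. With the replicate number as a block it was 16, against 5.54% of all tested genes, and the 7 added were AT5G27850, AT2G19730, AT2G44120, AT1G01100, AT2G37190, AT3G53430 and RPL16B. With an offset for gene length it was 4, against 1.36%. With replicate 1, 2 or 3 left out of every group it was 0, 0 and 1. The median of the 37 genes then differed from that of all tested genes by -0.22, -0.24 and -0.25. Shares of all tested genes are not given for fits that left out libraries. Leaving out 1 library gave 1 gene without wild-type total replicate 2 or mutant total replicate 3, and 10 without mutant total replicate 1. It gave 2 genes without wild-type total replicate 1 or 3, mutant total replicate 2, wild-type ribosome-bound replicate 1, or mutant ribosome-bound replicate 1 or 2. It gave 5 and 7 genes without wild-type ribosome-bound replicate 2 and 3, and 15 without mutant ribosome-bound replicate 3.

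**Figure D2:**
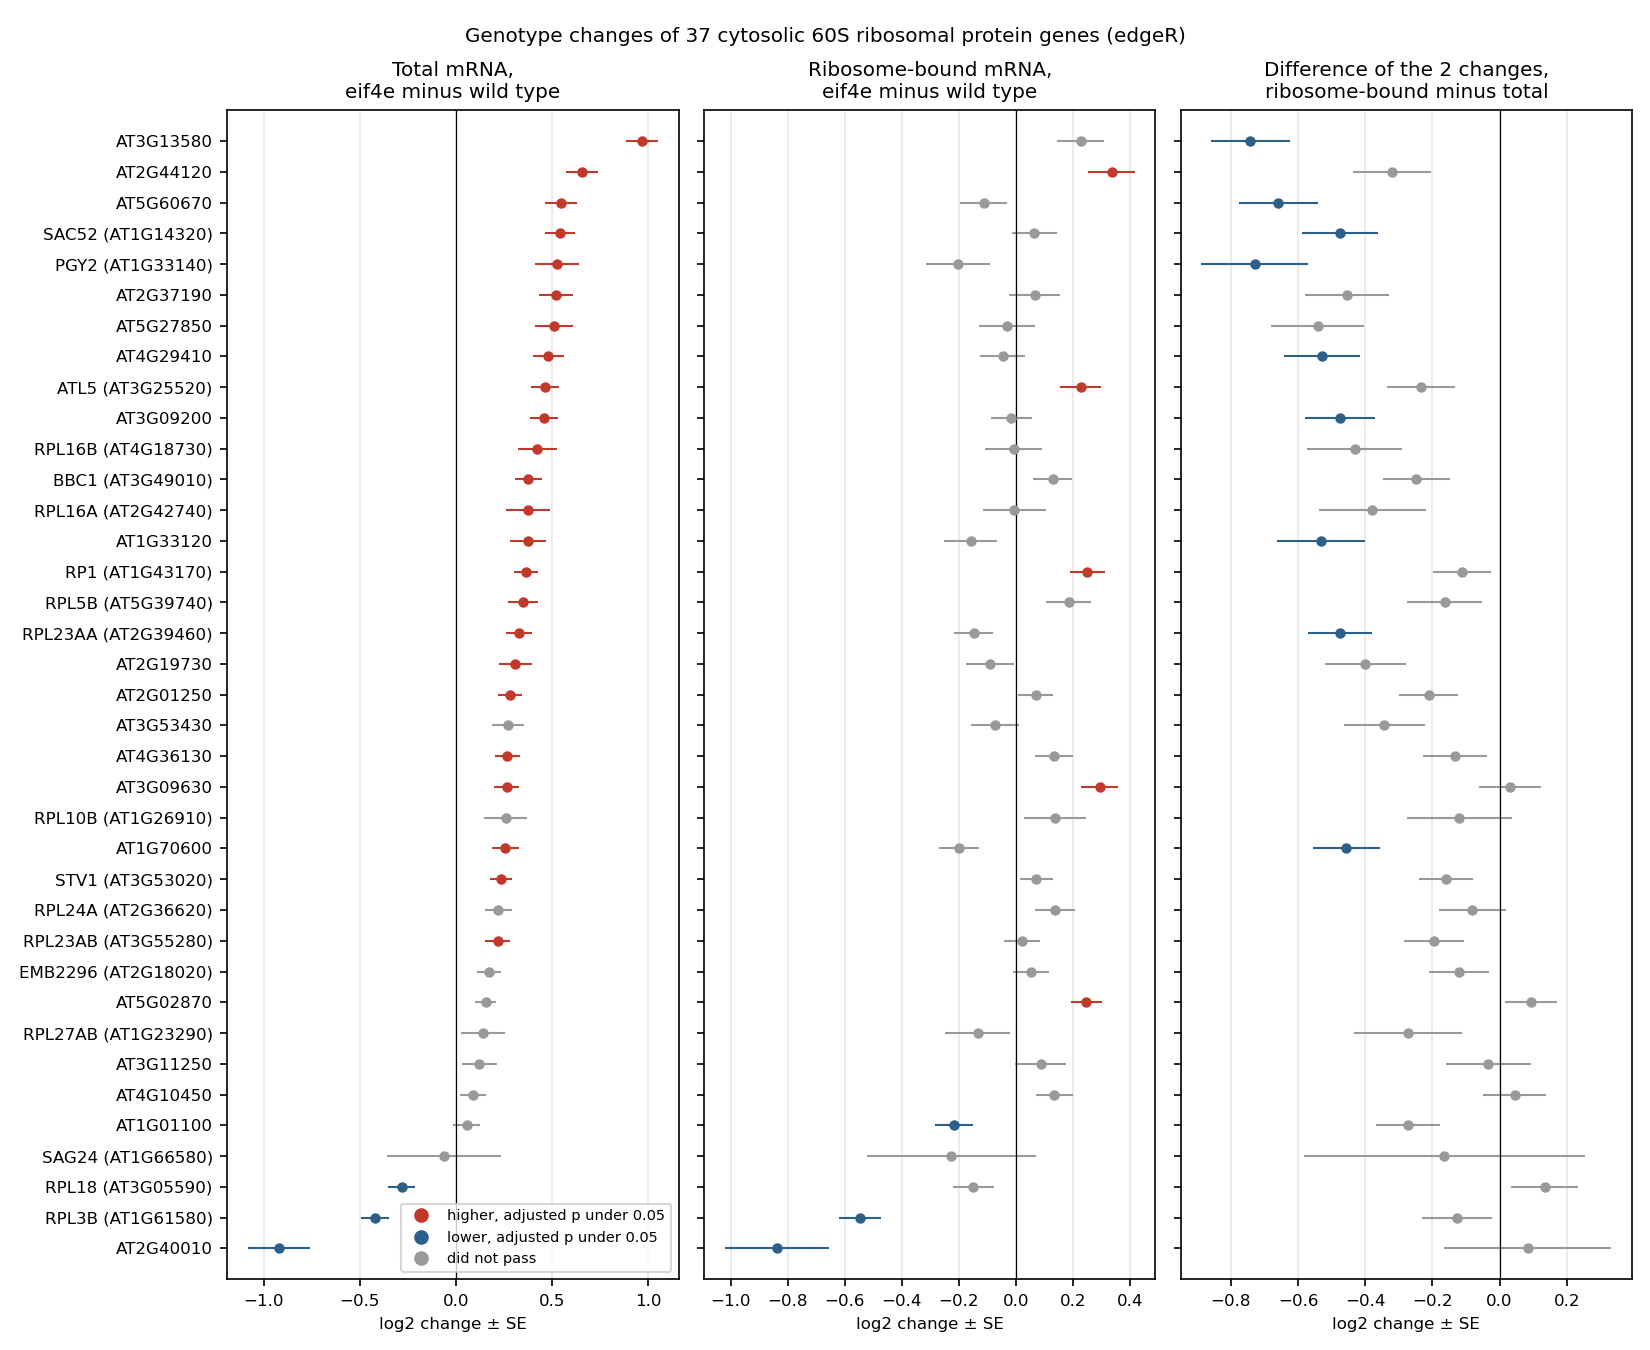
Log2 change (mutant over wild type) of each gene with its standard error in total mRNA (left) and ribosome-bound mRNA (middle), and the difference of the 2 changes (right), with genes ordered by the total change and coloured by the edgeR call. In total mRNA 24 genes lie right of 0 in red, on ribosomes 5 do, and the 9 called differences all lie left of 0.

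RPL18 (AT3G05590) encodes a protein of the large subunit and is the family used as a handle in the cited purification. It was the most abundant of the 37 mRNAs, with 1264, 1395 and 1269 FPKM in mutant and 1753, 1729.8 and 1739 FPKM in wild-type total mRNA. On ribosomes it stood at 5299, 5576 and 5189 FPKM on mutant and 6221, 6438 and 5703 FPKM on wild-type ribosomes. The groups did not overlap at either level, with the mutant lower. Its log2 change was -0.28 ± 0.07 (SE; adjusted p = 0.022) in total mRNA and -0.15 ± 0.07 (SE; adjusted p = 0.14) on ribosomes by edgeR, so the fall passed in total mRNA and not on ribosomes, and the difference between the 2 changes did not pass (0.13 ± 0.10 SE, adjusted p = 0.53). The fall in total mRNA missed the threshold in 7 of the 15 fits that left out libraries. By FPKM among all genes, RPL18 had rank 33, 27 and 34 in the mutant total libraries and rank 17 in each wild-type total library, and the next of the 36 genes, EMB2296, averaged 282 FPKM in wild-type total mRNA. Reads of a tagged transgene copy and of the native gene cannot be told apart in these tables.

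The 5S RNA enters the large subunit bound to protein L5, for which ATL5 and RPL5B are the named genes; ATL5 is also known for its part in leaf shape. ATL5 had 284, 305 and 323 FPKM in mutant and 242, 232 and 250.5 FPKM in wild-type total mRNA. RPL5B had 213, 223 and 234 FPKM in mutant and 191, 186 and 198 FPKM in wild-type total mRNA. Mutant values lay above all wild-type values for both. The log2 changes were 0.46 ± 0.07 (SE; adjusted p = 0.0022) for ATL5 and 0.35 ± 0.08 (SE; adjusted p = 0.014) for RPL5B, so both rose in total mRNA. On ribosomes ATL5 had 305, 354 and 347 FPKM on mutant and 285, 294 and 306 FPKM on wild-type ribosomes, and the genotypes overlapped. It passed there by edgeR (0.23 ± 0.07 SE, adjusted p = 0.038), while RPL5B did not pass (0.19 ± 0.08 SE, adjusted p = 0.099). RPL5B did pass there by edgeR with the replicate block (0.18, adjusted p = 0.023). The call of ATL5 in total mRNA held in all 28 alternative fits, and its call on ribosomes was lost in 15 of them.

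The catalytic centre is approached by L3, a conserved protein with an extension reaching towards it. Its named genes here moved in opposite directions. RP1, also listed as RPL3A, had 296, 331 and 324 FPKM in mutant and 266, 265 and 277 FPKM in wild-type total mRNA. RPL3B had 12.4, 12.8 and 12.6 FPKM in mutant and 18.2, 17 and 20.3 FPKM in wild-type total mRNA. The mutant values of RP1 lay above, and those of RPL3B below, every wild-type value. The log2 change in total mRNA was 0.36 ± 0.06 (SE; adjusted p = 0.0031) for RP1 and -0.42 ± 0.07 (SE; adjusted p = 0.0038) for RPL3B. On ribosomes RP1 had 257, 286 and 256 FPKM on mutant and 225, 228 and 239.7 FPKM on wild-type ribosomes. RPL3B had 11.1, 11 and 10.2 FPKM on mutant and 15.7, 15.4 and 17.6 FPKM on wild-type ribosomes. The genotypes again did not overlap for either gene. The log2 change on ribosomes was 0.25 ± 0.06 (SE; adjusted p = 0.013) for RP1 and -0.55 ± 0.07 (SE; adjusted p = 0.0012) for RPL3B. RPL3B thus made up 4.02, 3.73 and 3.75% of the L3 FPKM in mutant total mRNA, against 6.40, 6.03 and 6.81% in wild type. On ribosomes it made up 4.15, 3.70 and 3.81% in the mutant and 6.53, 6.31 and 6.85% in wild type. At both levels the shares did not overlap, and the exact two-sided permutation test gave p = 0.1, the smallest that 3 against 3 allows. In all, 26 such shares were tested, and none could pass 0.05.

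L10 joins late in the assembly of the subunit and readies it for pairing with the small subunit. SAC52, the main L10 gene here, whose mutant was found as a suppressor of a dwarf stem, had 338, 382 and 358 FPKM in mutant and 263, 275 and 271 FPKM in wild-type total mRNA. RPL10B had 9.75, 11 and 13 FPKM in mutant and 11, 9.76 and 10.2 FPKM in wild-type total mRNA. SAG24, named for its mRNA in senescing leaves, had 142, 232 and 159 FPKM in mutant and 169.9, 284 and 151 FPKM in wild-type total mRNA. Mutant values of SAC52 lay above all wild-type values, whereas the genotypes overlapped for RPL10B and SAG24. SAG24 was highest in replicate 2 of both genotypes, and its standard error, 0.30 on the log2 scale, was the largest of the 37. The log2 change in total mRNA was 0.54 ± 0.08 (SE; adjusted p = 0.0016) for SAC52, 0.26 ± 0.11 (SE; adjusted p = 0.13) for RPL10B and -0.06 ± 0.30 (SE; adjusted p = 0.90) for SAG24, so SAC52 alone of these passed. On ribosomes SAC52 had 351, 413 and 422 FPKM on mutant and 399.7, 382 and 389 FPKM on wild-type ribosomes. RPL10B had 11, 14.1 and 12 FPKM on mutant and 11.8, 11.2 and 11.8 FPKM on wild-type ribosomes. SAG24 had 202, 296 and 220.1 FPKM on mutant and 236, 402 and 225 FPKM on wild-type ribosomes. All 3 genes overlapped between genotypes there, and SAG24 was again highest in replicate 2 of each. The SAC52 share of the L10 FPKM was 65.9 ± 4.2% in mutant and 56.8 ± 7.5% in wild-type total mRNA (SD, n = 3 each), and the groups overlapped (exact permutation p = 0.2). By replicate number it was 69.0, 61.1 and 67.6% in the mutant and 59.3, 48.3 and 62.7% in wild type, lowest in replicate 2 of each, and the mutant was higher in 3 of 3 same-numbered pairs. On ribosomes it was 62.2, 57.1 and 64.5% in the mutant and 61.7, 48.0 and 62.1% in wild type, again with overlap and with the mutant higher in 3 of 3 pairs. The ribosome-bound change of SAC52 was 0.07 ± 0.08 (SE; adjusted p = 0.56), and its difference from the total change passed (-0.48 ± 0.11 SE, adjusted p = 0.043).

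L23A sits at the exit of the tunnel through which the new chain leaves. RPL23AA had 122, 124 and 136 FPKM in mutant and 111, 106 and 115 FPKM in wild-type total mRNA. On ribosomes it had 153, 175 and 171 FPKM on mutant and 188, 185 and 198 FPKM on wild-type ribosomes. The genotypes did not overlap at either level, with the mutant higher in total mRNA and lower on ribosomes. On the log2 scale RPL23AA rose by 0.33 ± 0.07 (SE; adjusted p = 0.0090) and RPL23AB by 0.22 ± 0.06 (SE; adjusted p = 0.039) in total mRNA. On ribosomes their log2 changes were -0.15 ± 0.07 (SE; adjusted p = 0.12) and 0.02 ± 0.06 (SE; adjusted p = 0.83), and neither passed. RPL23AA did pass there by edgeR with the replicate block (-0.15, adjusted p = 0.043). The difference between levels passed for RPL23AA (-0.48 ± 0.10 SE, adjusted p = 0.026) and not for RPL23AB (-0.20 ± 0.09 SE, adjusted p = 0.25); the 2 differences were not tested against each other. RPL23AA made up 63.6 ± 0.0077% of the L23A FPKM in mutant and 61.8 ± 0.085% in wild-type total mRNA (SD, n = 3 each). On ribosomes its share was 59.6 ± 0.095% in the mutant and 62.4 ± 0.51% in wild type. The shares did not overlap at either level (exact permutation p = 0.1 each), with the mutant higher in total mRNA and lower on ribosomes.

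L24 lies at the face towards the small subunit. STV1, an L24 gene known for its role in the translation of auxin response factors with upstream reading frames, rose in total mRNA by 0.23 ± 0.06 (SE; adjusted p = 0.020). RPL24A, its paralogue, was at 0.22 ± 0.07 (SE; adjusted p = 0.053), and passed by edgeR with the replicate block (adjusted p = 0.021). On ribosomes STV1 was at 0.07 ± 0.06 (SE; adjusted p = 0.36) and RPL24A at 0.14 ± 0.07 (SE; adjusted p = 0.16). The shares of the pair overlapped between genotypes at both levels, and by replicate number the RPL24A share was higher in the mutant in 1 of 3 pairs in total mRNA and 3 of 3 on ribosomes. The genes RPL16A and RPL16B rose by 0.37 ± 0.11 (SE; adjusted p = 0.044) and 0.42 ± 0.10 (SE; adjusted p = 0.017) in total mRNA and were at -0.00 ± 0.11 and -0.01 ± 0.10 on ribosomes, where neither passed. Their differences between levels were -0.38 ± 0.16 (SE; adjusted p = 0.21) and -0.43 ± 0.14 (SE; adjusted p = 0.11) by edgeR, and neither passed. By edgeR with the replicate block the difference of RPL16B passed (adjusted p = 0.020). RPL16B held 92.7 ± 0.17% of the FPKM of the pair in mutant and 92.4 ± 0.42% in wild-type total mRNA (SD, n = 3 each), and these overlapped. The ATL5 share of the L5 FPKM was 57.7 ± 0.41% in mutant and 55.8 ± 0.19% in wild-type total mRNA, with no overlap (exact permutation p = 0.1). On ribosomes it was 49.1 ± 0.83% in the mutant and 48.4 ± 0.35% in wild type, with overlap (exact permutation p = 0.3).

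**Figure D3:**
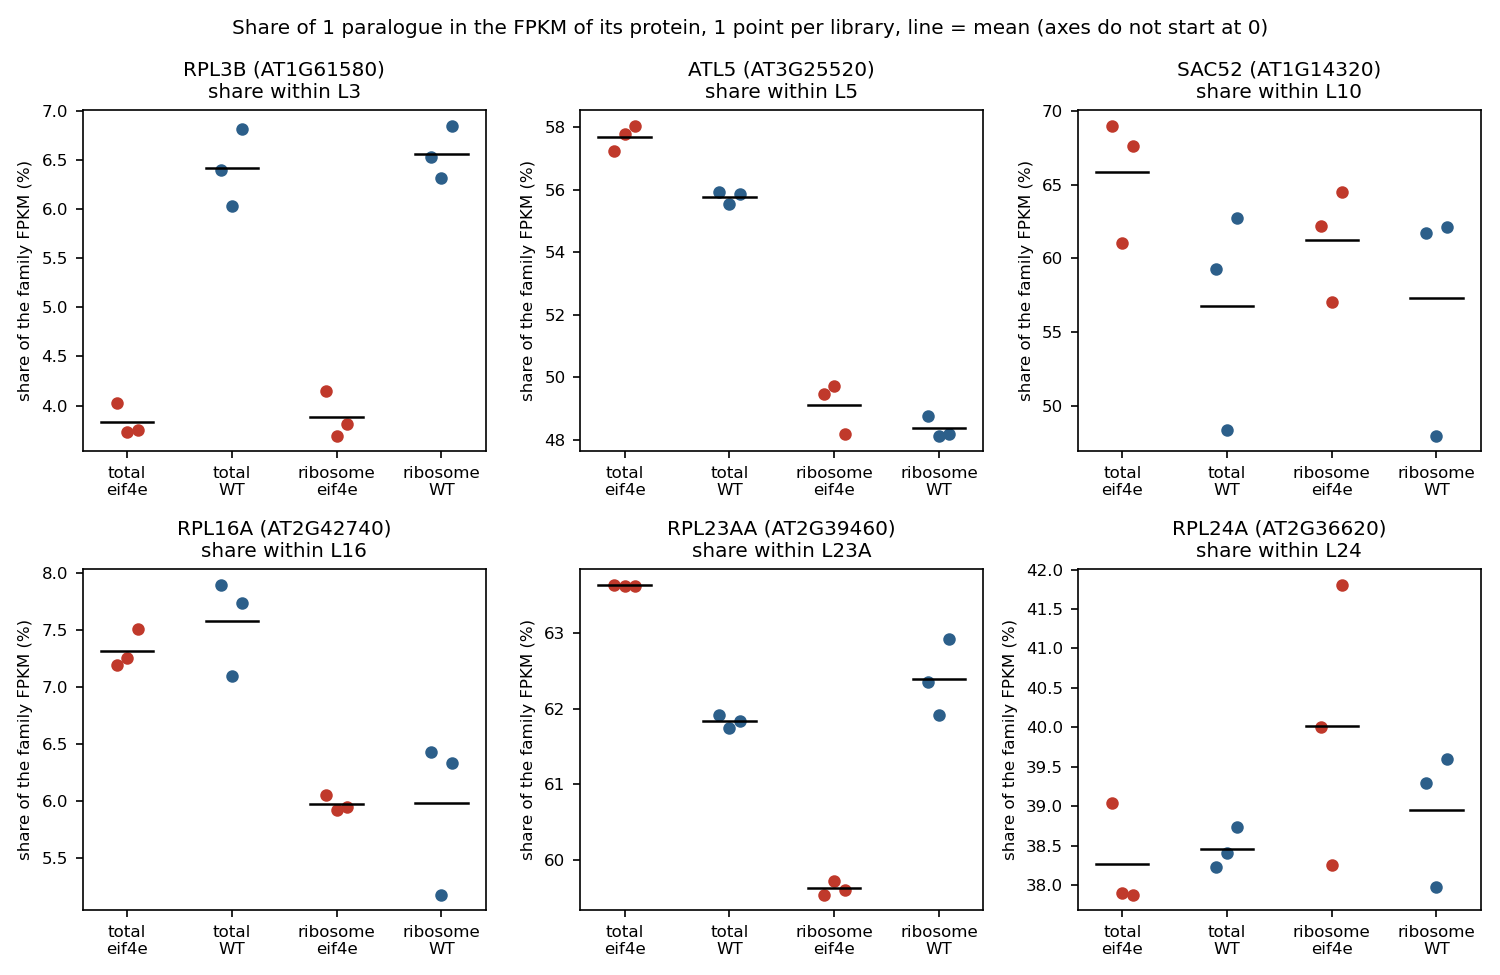
Share of 1 paralogue in the summed FPKM of the named genes of its protein, 1 point per library with the mean as a line, for 6 proteins; mutant left of wild type within each kind of mRNA, and the axes do not start at 0. RPL3B was near 4% in the mutant and above 6% in wild type at both levels, while the SAC52, RPL16A and RPL24A shares overlapped between genotypes.

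PGY2 is named for the piggyback leaf phenotype, in which outgrowths form on the leaf blade. It had 87.3, 98.1 and 97 FPKM in mutant and 73.1, 70.9 and 70.2 FPKM in wild-type total mRNA. Its ribosome-bound values were 81.2, 99.8 and 102 FPKM on mutant and 132, 98.8 and 106 FPKM on wild-type ribosomes. The genotypes separated in total mRNA, with the mutant higher, and overlapped on ribosomes. Its log2 change was 0.53 ± 0.11 (SE; adjusted p = 0.011) in total mRNA and -0.20 ± 0.11 (SE; adjusted p = 0.20) on ribosomes, and the difference of -0.73 ± 0.16 (SE; adjusted p = 0.034) was among the most negative. AT1G33120, a listed 60S gene with 3 genes between it and PGY2 on chromosome 1, had 49.8, 57.2 and 56.1 FPKM in mutant and 43.9, 44.6 and 49.1 FPKM in wild-type total mRNA. The ribosome-bound libraries gave 56.5, 67.2 and 68.6 FPKM on mutant and 80.9, 67.7 and 73 FPKM on wild-type ribosomes. It showed the same order as PGY2, with overlap only on ribosomes. Its changes were 0.37 ± 0.09 (SE; adjusted p = 0.020) in total mRNA and -0.16 ± 0.09 (SE; adjusted p = 0.22) on ribosomes, with a difference of -0.53 ± 0.13 (SE; adjusted p = 0.048). The difference of PGY2 was lost in 14 of the 28 alternative fits and that of AT1G33120 in 22.

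Among the other named genes, BBC1 rose in total mRNA (0.38 ± 0.07 SE, adjusted p = 0.0055) and was at 0.13 on ribosomes. EMB2296, named for an embryo-defective mutant and next to RPL18 in wild-type total mRNA, did not pass at either level (0.17 in total mRNA and 0.05 on ribosomes). By edgeR with the replicate block it passed in total mRNA (0.17, adjusted p = 0.044). RPL27AB had 151, 167 and 178 FPKM in mutant and 165, 163 and 164 FPKM in wild-type total mRNA. On ribosomes it had 358, 338 and 456 FPKM on mutant and 425, 435 and 448 FPKM on wild-type ribosomes. Genotypes overlapped at both levels, and its log2 changes were 0.14 ± 0.11 (SE; adjusted p = 0.42) in total mRNA and -0.13 ± 0.11 (SE; adjusted p = 0.40) on ribosomes.

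Among the genes called by identifier, AT3G13580 had the largest change in total mRNA. It had 62.5, 74.7 and 68.1 FPKM in mutant and 36, 39.2 and 39.4 FPKM in wild-type total mRNA. Its ribosome-bound values were 41.1, 50.4 and 43.9 FPKM on mutant and 40.2, 41.4 and 37.6 FPKM on wild-type ribosomes. Every mutant total value exceeded every wild-type value, while on ribosomes the lowest mutant value fell within the wild-type range. Its log2 change was 0.97 ± 0.08 (SE; adjusted p = 7.2e-05) in total mRNA, 0.23 ± 0.08 (SE; adjusted p = 0.064) on ribosomes and -0.74 ± 0.12 (SE; adjusted p = 0.011) for the difference, the most negative of the 37. By edgeR with the replicate block its ribosome-bound change passed (0.22, adjusted p = 0.0098). AT2G44120 had 70.6, 86.1 and 82.9 FPKM in mutant and 56.3, 55.4 and 54.5 FPKM in wild-type total mRNA. The ribosome-bound libraries gave 65.8, 79 and 74.6 FPKM on mutant and 58.8, 61.3 and 59.1 FPKM on wild-type ribosomes. The mutant was higher without overlap at both levels, and the changes were 0.66 ± 0.08 (SE; adjusted p = 6.3e-04) in total mRNA and 0.34 ± 0.08 (SE; adjusted p = 0.013) on ribosomes.

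AT5G60670 had 89.6, 90.3 and 91.4 FPKM in mutant and 70.4, 64.4 and 68.3 FPKM in wild-type total mRNA. On ribosomes it had 86.8, 97.7 and 109.8 FPKM on mutant and 107, 109 and 113 FPKM on wild-type ribosomes. The genotypes separated in total mRNA only, and the fitted change was 0.55 ± 0.08 (SE; adjusted p = 0.0019) there and -0.11 ± 0.08 (SE; adjusted p = 0.33) on ribosomes, with a difference of -0.66 ± 0.12 (SE; adjusted p = 0.016). AT3G09200 had 260.3, 286 and 304 FPKM in mutant and 220.4, 221 and 235 FPKM in wild-type total mRNA. Its ribosome-bound values were 162, 185 and 179 FPKM on mutant and 177, 179 and 193 FPKM on wild-type ribosomes. The genotypes separated in total mRNA and overlapped on ribosomes. It rose in total mRNA (0.46 ± 0.07 SE, adjusted p = 0.0023) and did not pass on ribosomes (-0.02 ± 0.07 SE, adjusted p = 0.89), and the difference passed (-0.48 ± 0.10 SE, adjusted p = 0.033). AT2G40010, the least abundant of the 37, had 3.28, 2.84 and 3.41 FPKM in mutant and 6.85, 6.21 and 6.72 FPKM in wild-type total mRNA. The ribosome-bound libraries gave 1.30, 0.917 and 1.49 FPKM on mutant and 2.33, 2.48 and 2.05 FPKM on wild-type ribosomes. All mutant values were below all wild-type values at both levels, and the log2 changes were -0.92 ± 0.16 (SE; adjusted p = 0.0039) in total mRNA and -0.84 ± 0.18 (SE; adjusted p = 0.0084) on ribosomes. Its lowest library held 23 counts, so it was the least precisely counted gene of the list.

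Increases on ribosomes were led by AT2G44120, described above, and AT3G09630. AT3G09630 had 135, 147 and 141 FPKM in mutant and 124, 133 and 128 FPKM in wild-type total mRNA. On ribosomes it had 123, 134 and 128 FPKM on mutant and 101, 109.5 and 113 FPKM on wild-type ribosomes. It was higher in the mutant at both levels (0.26 ± 0.07 SE, adjusted p = 0.021 in total mRNA and 0.29 ± 0.07 SE, adjusted p = 0.0091 on ribosomes), without overlap at either. AT5G02870 had 160.3, 165 and 166 FPKM in mutant and 160.3, 163 and 159 FPKM in wild-type total mRNA. Its ribosome-bound values were 189, 186 and 184 FPKM on mutant and 159, 159.6 and 168 FPKM on wild-type ribosomes. The genotypes overlapped in total mRNA and separated on ribosomes, where it rose (0.25 ± 0.05 SE, adjusted p = 0.0086). Its total change was 0.15 ± 0.05 (SE; adjusted p = 0.074), and passed by edgeR with the replicate block (adjusted p = 0.043). AT1G01100 had 168, 185 and 196 FPKM in mutant and 193, 189.8 and 195 FPKM in wild-type total mRNA. The ribosome-bound libraries gave 272, 288 and 291 FPKM on mutant and 338, 324 and 359.7 FPKM on wild-type ribosomes. The mutant ribosome-bound values all lay below the wild-type values, and the log2 change was -0.22 ± 0.07 (SE; adjusted p = 0.035), while total mRNA was at 0.05. With an offset for gene length its ribosome-bound change was 0.036.

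The remaining genes called by identifier rose in total mRNA in 7 of 10 cases. AT2G37190, AT5G27850 and AT4G29410 were the highest of these (0.52, 0.51 and 0.48 on the log2 scale), and AT2G19730, AT2G01250, AT4G36130 and AT1G70600 ran from 0.26 to 0.31. AT3G53430 was at 0.27 ± 0.09 (SE; adjusted p = 0.050), AT4G10450 at 0.09 and AT3G11250 at 0.12, and these 3 did not pass. By edgeR with the replicate block AT3G53430 passed (0.27, adjusted p = 0.0068). On ribosomes the 10 genes did not pass without the block, with log2 changes between -0.20 and 0.13. By edgeR with the block AT1G70600 passed there (-0.20, adjusted p = 0.024). The difference between levels passed for AT4G29410 (-0.53 ± 0.11 SE, adjusted p = 0.032) and AT1G70600 (-0.46 ± 0.10 SE, adjusted p = 0.033), and AT5G27850 missed the threshold (-0.54 ± 0.14 SE, adjusted p = 0.055). By edgeR with the block the difference passed for AT5G27850 (adjusted p = 0.0058) and AT2G37190 (adjusted p = 0.0093). It also passed there for AT3G53430 (adjusted p = 0.029) and AT2G19730 (adjusted p = 0.036), all negative.

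Ribosome association was measured within each genotype as the log2 ratio of ribosome-bound over total mRNA, scaled by TMM, so it is relative to the bulk of mRNAs and not the share of a transcript that is on ribosomes. In the mutant, 21 of the 37 genes were higher on ribosomes and 5 lower, with a median ratio of 0.27, against 29.1% and 29.3% of all tested genes (58.4% in either direction). In wild type, 29 were higher and 2 lower, with a median of 0.77, against 33.8% and 33.6% of all tested genes (67.5% in either direction). The genotype difference in these ratios is the difference between levels tested above and is no further evidence for it.

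RPL18 had the highest ratio, at 2.07 ± 0.07 in the mutant and 1.93 ± 0.07 in wild type, followed by RPL27AB at 1.26 ± 0.12 in the mutant and 1.53 ± 0.12 in wild type (log2 ± SE). AT2G40010 had the lowest, at -1.32 ± 0.18 in the mutant and -1.40 ± 0.17 in wild type. AT3G09200 came next, at -0.66 ± 0.07 in the mutant and -0.18 ± 0.07 in wild type. Each of these ratios passed the test. AT3G13580 was below 0 in the mutant (-0.57 ± 0.08 SE, adjusted p = 1.4e-04) and did not pass in wild type (0.17 ± 0.08 SE, adjusted p = 0.085).

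**Figure D4:**
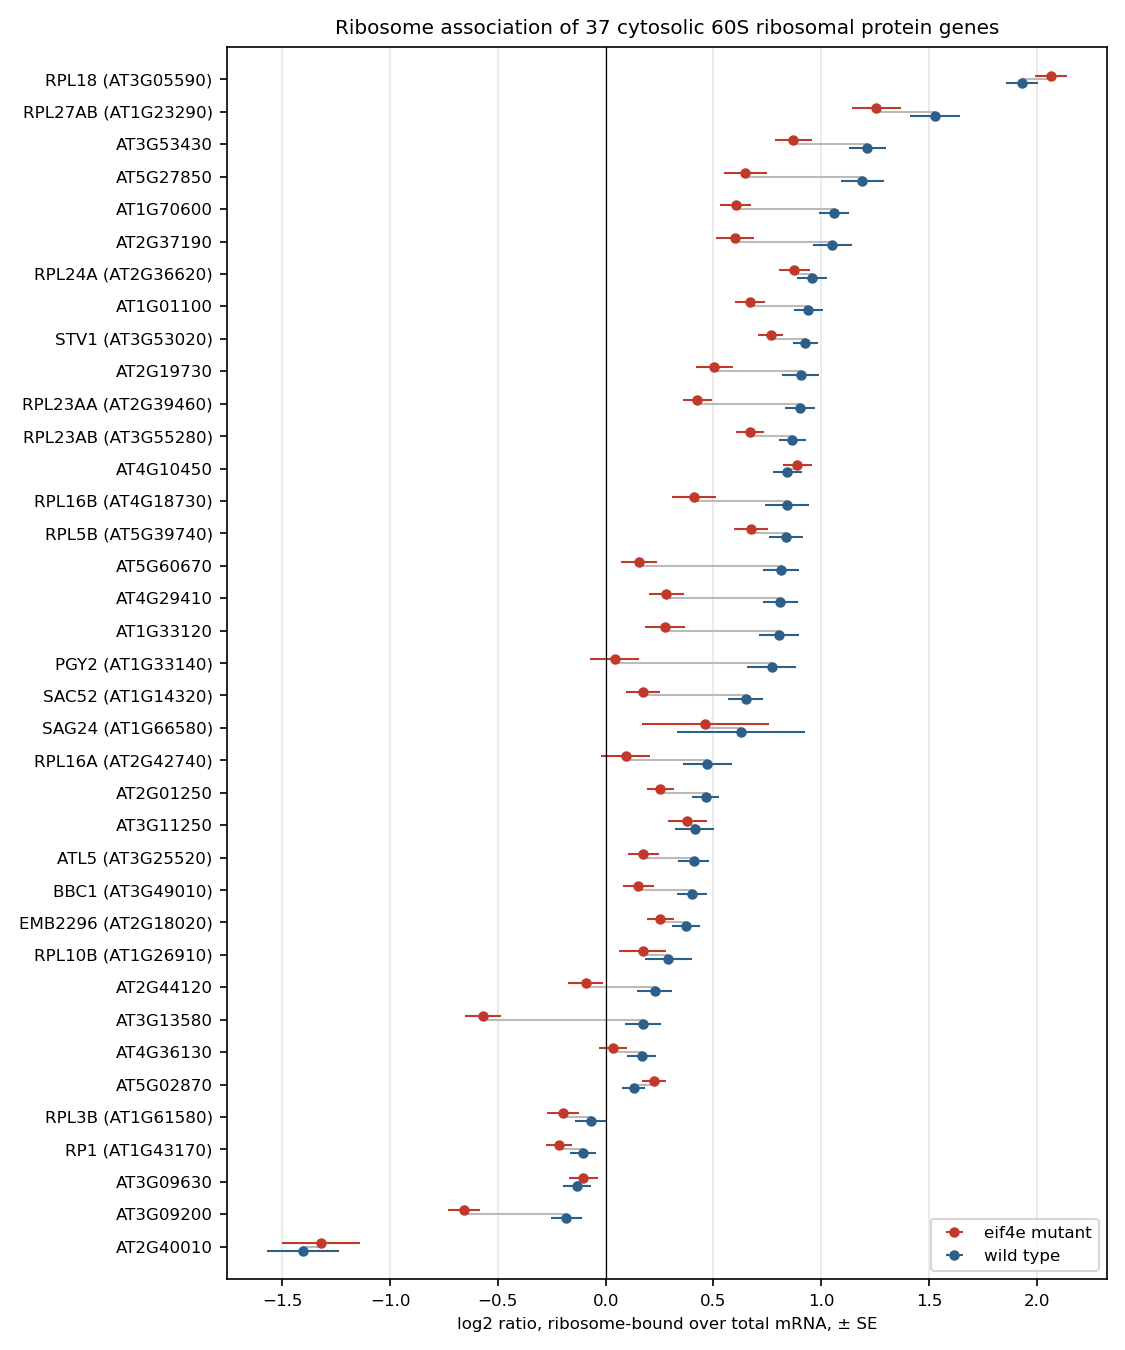
Log2 ratio of ribosome-bound over total mRNA for each gene with its standard error, mutant (red) and wild type (blue), joined by a line and ordered by the wild-type ratio. Mutant points lie left of wild-type points for 32 of the 37 genes, and RPL18 is the rightmost gene in both genotypes.

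Ribosome association in these libraries ran with gene length. The 37 genes are short, with a median length 0.627 times that of all tested genes, and when all tested genes were cut into 5 equal classes of length, 18, 12 and 7 of the 37 lay in classes 1, 2 and 3, the shorter ones, with 0 in the others. Over all tested genes the median ratio by class, short to long, was 0.63, 0.29, 0.03, -0.19 and -0.50 in the mutant. In wild type it was 0.92, 0.41, 0.03, -0.27 and -0.72. The difference between the genotypes followed the same order, with medians of -0.28, -0.11, -0.01, 0.07 and 0.23. The shortest class of all genes thus had the highest median ratio in both genotypes and the most negative median difference.

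With an offset for gene length in each library, the median of the 37 genes was -0.050 for association in the mutant (9 higher, 13 lower) and 0.15 in wild type (16 higher, 5 lower). Among all tested genes in that fit, 21.9% were higher and 16.9% lower in the mutant, with a median of 0.03, and 30.4% and 14% in wild type, with a median of 0.11. The median difference between levels was -0.16 with this offset, against -0.08 for all tested genes, and it passed for AT3G13580 (-0.85), RPL23AA (-0.55), AT3G09200 (-0.50) and AT5G60670 (-0.43). The counts in total mRNA were 28 higher and 3 lower with the offset, against 18.9% and 3.34% of all tested genes in that fit. On ribosomes they were 12 higher and 2 lower, against 10.6% and 6.88%, with a median of 0.18. With both the offset and the replicate block, the difference between levels passed for 8 genes, all negative, against 3.09% of all tested genes on that side. For the median of the 37 genes without the offset, short length and membership of the list cannot be told apart. In class 3 the median difference of all tested genes without the offset was -0.01. The differences there were -0.74 for AT3G13580, -0.48 for RPL23AA, -0.32 for AT2G44120, -0.13 for RPL3B and -0.11 for RP1. AT3G09630 (0.03) and AT5G02870 (0.09) were above 0. The part of length in these values was not tested.

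**Figure D5:**
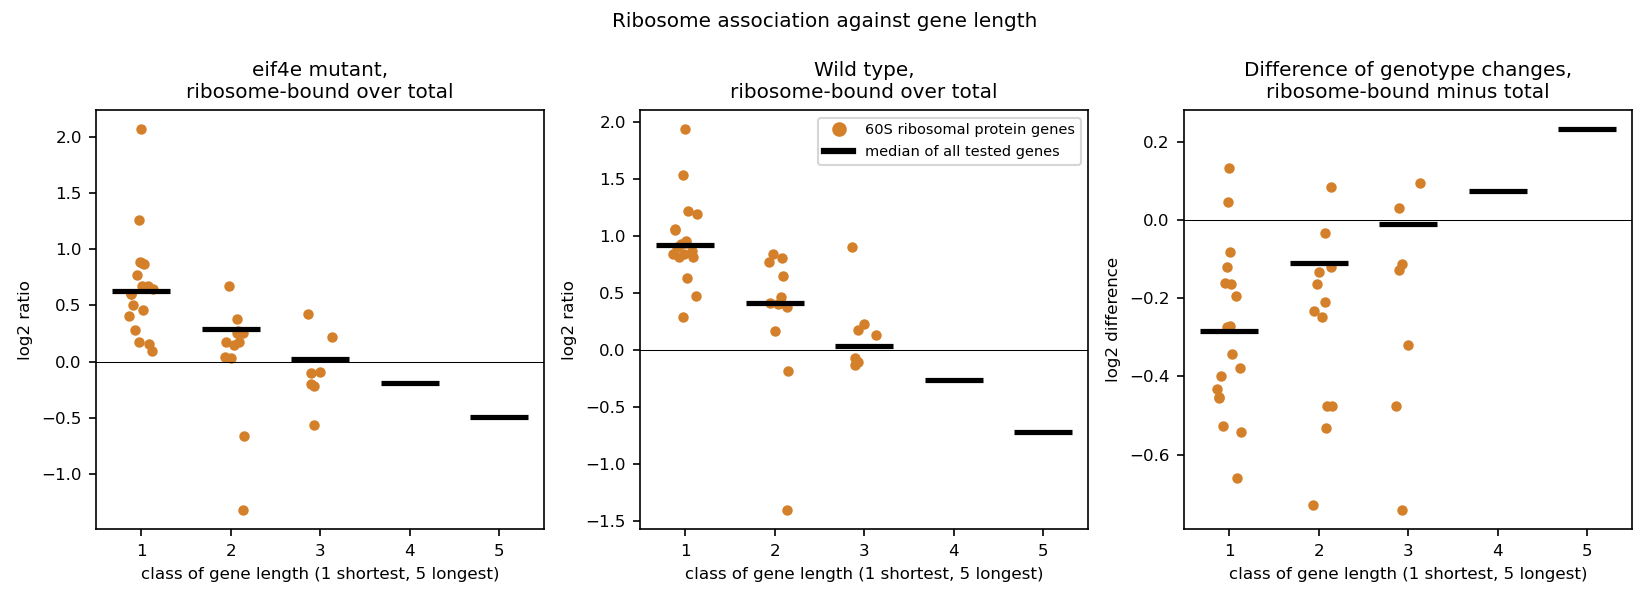
Log2 ratio of ribosome-bound over total mRNA in the mutant (left) and wild type (middle), and the genotype difference of the changes (right), for the 37 genes (points) by class of gene length among all tested genes (1 shortest, 5 longest), with the median of all tested genes in each class as a bar. The bars fall with length in the first 2 panels and rise in the third, and the 37 genes lie in classes 1 to 3.

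The other genes listed for the 60S subunit were counted as a comparison. Of 93 such genes 84 were tested, and in total mRNA 59 rose and the other 25 did not pass, with a median log2 change of 0.41. Among all tested genes 10.4% rose there and 6.54% fell. The highest were AT2G19740 (0.91 ± 0.11 SE, adjusted p = 4.1e-04) and AT3G14600 (0.89 ± 0.10 SE, adjusted p = 2.7e-04), and the lowest that passed were AT1G18540 (0.25) and AT5G56710 (0.26). On ribosomes 3 rose and 9 fell (3.57% and 10.7%), with a median of -0.05, against 15.4% and 12% of all tested genes. With the length offset 25 rose and 1 fell there, with a median of 0.17, against 10.6% and 6.88%. With the replicate block 3 rose and 18 fell, against 20.9% and 20.4%. AT3G16780 (0.34) and AT1G80750 (0.30) were the highest there, and AT1G74270 (-0.54) and AT2G43460 (-0.40) the lowest. The difference between levels passed for 37, all negative, with a median of -0.49, against 2.35% of all tested genes on that side. It passed for 18 with the length offset (median -0.28), 54 with the block and 31 with both, all negative. The shares of all tested genes on that side were 1.36%, 5.54% and 3.09% in these fits. These 84 genes were not tested against the 37.

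Genes listed for ribosome assembly, which act in the nucleolus and in the export and maturation of subunits, were counted in the same way. Of 14, all tested, 6 rose in total mRNA (median log2 change 0.22) and 6 on ribosomes (median 0.23), against 10.4% and 15.4% of all tested genes. At each level the other 8 did not pass. The difference between levels passed for 0 of 14 by edgeR (median 0.00), against 4.03% of all tested genes in either direction. At an unadjusted p under 0.05 by edgeR, 1 was higher and 2 were lower. In total mRNA AT4G31420 rose by 0.75 and NMD3, an export adaptor of the large subunit, by 0.67 on the log2 scale; AT1G52930 (0.35) and the gene with the symbol FZF (0.31) rose least. On ribosomes NUC-L1, a nucleolin that acts in ribosomal RNA production, rose by 0.49 and AT1G08410 by 0.47, and FIB1, a fibrillarin that methylates ribosomal RNA (0.31), and PUM23, a nucleolar processing factor (0.31), rose least.

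How firmly each call stood varied between genes. The increase in total mRNA was called in all 28 alternative fits for 6 of the 24 genes, namely ATL5, SAC52, AT3G13580, AT2G44120, AT3G09200 and AT5G60670. For the 3 that fell in total mRNA, the 8 called on ribosomes and the 9 called for the difference between levels, at least 1 alternative fit lost the call of each gene. The difference was lost in 3 of the 28 fits for AT3G13580, 4 for AT5G60670, 13 for RPL23AA and 14 for AT4G29410. It was lost in 17 for AT3G09200, 18 for AT1G70600 and 19 for SAC52. Without mutant total replicate 2, the library with the higher EIF4E value, 17 genes rose and 3 fell in total mRNA, and the difference between levels passed for 2 genes. Paralogues share much of their sequence and how the counting program, not given in the sources used here, treated reads that match several copies is unknown, so values of near-identical copies are uncertain.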

How the data were processed

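Each library's deposited table lists genes with the read counts the authors made and the authors' FPKM values. Reads were aligned to TAIR10 by TopHat2 (version 2.0.11, as the submitters' processing notes list it), and were counted with a program not given in the sources used here. Poly(A) RNA went into a stranded kit, per the labels' protocols. Genes absent from a table got 0 counts there (3308 genes were missing from at least 1 table, with at most 51 counts elsewhere). Replicates of a group correlated at 0.976 to 0.993 and differed beyond sampling noise, and each counted as 1 sample.

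The 19170 genes whose FPKM averaged at least 1 were fitted in edgeR 4.0.16 (R 4.3.3) on the deposited counts with TMM scaling and 1 mean per group over all 12 libraries, leaving 8 residual degrees of freedom. Quasi-likelihood F tests gave p-values, adjusted by Benjamini-Hochberg over all tested genes in each of 5 contrasts, with a threshold of 0.05. The common dispersion was 0.0185. The median count of a tested gene in a library was 337 to 479. The script was tested on simulated data with changes in mutant total mRNA only. The simulated libraries held no shared replicate effect and no trend with gene length. That test therefore does not show how the fits handle either. Gene length was computed back from counts and FPKM, and the length offset removed each library's lowess trend of log counts on log length (span 0.3).

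Samples with the same replicate number deviated together from their group means (correlations of 0.186 to 0.795, median 0.48, over 18 pairs of libraries). Libraries with different numbers gave -0.727 to 0.299 (median -0.32, 36 pairs), so the ranges overlapped. The 3 deviations of a group sum to 0, so values above 0 for same numbers push the others below 0. The second set is thus no independent baseline for the first. Mutant total replicate 1 correlated at 0.299 with wild-type ribosome-bound replicate 3 and at 0.186 with replicate 1. The numbers were taken to pair the samples, from these correlations and not from the labels. Across genotypes the pairing of replicates 1 and 3 is less clear. Blocked counts stand beside the results for the genotype contrasts, and those for association in the closing section. Shares of paralogues were taken within the FPKM of the genes RefSeq names for 6 proteins and compared by exact two-sided permutation tests over libraries, with a smallest p of 0.1.

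The genes and lists were chosen with earlier results of these data known, so their direction is no independent evidence. Genes given with values in every library were RPL18 (AT3G05590) and the 4 largest calls in each direction of each genotype contrast, or all where fewer passed. The 2 highest and 2 lowest ratios of ribosome-bound over total mRNA that passed were also given. So were paralogues whose changes differed by at least 0.3 on the log2 scale, among genes RefSeq names for the same protein. Genes called by identifier were not grouped by protein. Differences between them and their paralogues were therefore not looked for, and families other than those shown may also diverge. ATL5, RPL5B and RPL23AA were added after their values were seen. The RefSeq table (assembly TAIR10.1) supplied symbols and held 25710 of the 25835 identifiers; since the files use another build, its coordinates served only for chromosome and gene order. Of the 94 genes fixed for the other 60S list, 1 (AT3G18740) was dropped because its symbol, RLK902, names another protein. Descriptions were not at hand to check this, and genes with other symbols, such as UBQ1 and RSU1, were kept. Alternatives were other scalings, filters, DESeq2, limma on FPKM, the length offset, the block and leaving out libraries.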

Additional observations from a re-analysis of the deposited data

Results flagged for a closer look

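In 9 of the 37 genes the mutant's change on ribosomes differed from its change in total mRNA by a test of the difference itself, edgeR's quasi-likelihood test with Benjamini-Hochberg adjustment. On the log2 scale the difference was -0.74 for AT3G13580, -0.73 for PGY2 (AT1G33140), -0.66 for AT5G60670, -0.53 for AT1G33120 and -0.53 for AT4G29410. It was -0.48 for RPL23AA (AT2G39460), -0.48 for SAC52 (AT1G14320), -0.48 for AT3G09200 and -0.46 for AT1G70600. In each gene the total change was positive and the ribosome-bound change was lower. With an offset for gene length the difference passed in 4 of the 9, AT3G13580, RPL23AA, AT3G09200 and AT5G60670.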

How the results depend on the processing

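Calls in total mRNA depended on the scaling and on the number of libraries. Shares of all tested genes with the length offset or the block stand here or beside the results. Apart from the read total in total mRNA, they are not given for the other alternatives below. Changed counts there are no result about these genes. With the read total as the only scaling 14 genes rose (median log2 change 0.17), and with limma on log2(FPKM + 1), log2(FPKM + 0.1) or log2(FPKM + 5) 13 rose (median 0.15). Over all tested genes, 2001 rose and 1253 fell with TMM, against 1022 and 3034 with the read total alone. Over the 15 fits that left out libraries, 8 to 26 genes rose and 0 to 3 fell, with a median of 0.28 to 0.35; 14 rose without wild-type total replicate 1, 14 without mutant total replicate 3, and 8, 11 and 8 without replicate 1, 2 or 3 in all groups. On ribosomes DESeq2 gave 5 that fell, a fit of only the 2 groups gave 2 that rose and 1 that fell, and fits that left out libraries gave 0 to 7 that rose and 0 to 6 that fell, with a median of -0.012 to 0.087. The length offset gave 12 that rose (median 0.18), and with the block as well 20 rose (median 0.18), against 16.9% of all tested genes.

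The negative difference between levels passed for 5 genes with the read total alone (median -0.17), 5 with no filter on low values, and 3, 3 and 5 with limma at pseudocounts of 1, 0.1 and 5 (medians -0.17, -0.17 and -0.16); at a pseudocount of 5 it was positive and passed for 1 gene. It passed for 4 with the length offset (median -0.16), 16 with the replicate block, and 8 with both (median -0.16). Fits that left out libraries gave 0 to 15, and the median ran from -0.30 to -0.19. The values without single libraries stand beside the result.

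For the ratio of ribosome-bound over total mRNA in the mutant, fits that left out libraries gave 3 to 5 genes lower and a median of 0.21 to 0.36. The length offset gave 9 higher and 13 lower in the mutant (median -0.050), and with the block as well 10 higher and 14 lower (median -0.051). Of all tested genes, 26.9% were higher and 21.6% lower in the fit with both. In wild type, fits that left out libraries gave 1 to 2 lower and a median of 0.66 to 0.81. The count of genes lower was 1 there with upper-quartile scaling or no filter, and 4 with the read total alone (median ratio 0.65) or limma at pseudocounts of 1, 0.1 and 5 (medians 0.64, 0.64 and 0.61). The length offset gave 16 higher and 5 lower in wild type (median 0.15), and with the block as well 17 higher and 5 lower (median 0.15). Of all tested genes, 36.3% were higher and 17.7% lower in the fit with both.

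Among values past the threshold without or with the change of setting, signs turned only under the length offset, with or without the replicate block; by its construction the offset removes each library's trend of counts with gene length. Over all 37 genes, past the threshold or not, the ribosome-bound change took the other sign for 12 with the offset and for 12 with both, and for 0 to 7 under each other alternative. Of those 12, AT1G01100 had been called and was at 0.036 with the offset and 0.037 with both; AT4G29410 (0.19) and RPL16B (0.18) took these values with the offset alone too and passed only with both. The next ratios are with the offset, and those with both were close to them. In the mutant the ratio of ribosome-bound over total turned to -0.23 for SAC52, -0.31 for RPL10B, -0.13 for AT1G33120, -0.38 for PGY2, -0.080 (with both -0.081) for AT2G19730, -0.34 for AT4G29410 and -0.057 (with both -0.058) for AT2G01250. It also turned to -0.15 for EMB2296, -0.30 for AT4G36130, -0.016 for AT2G37190, -0.48 for AT5G60670, -0.23 for BBC1, -0.50 for RPL16A and -0.14 for RPL16B. In wild type it turned to -0.33 for RPL10B, -0.029 (with both -0.029) for AT4G29410, -0.13 for EMB2296, -0.23 for AT4G36130, -0.051 (with both -0.052) for AT5G60670, -0.064 (with both -0.063) for BBC1 and -0.32 for RPL16A.

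The replicate block ended no call of the 37 genes in total mRNA, on ribosomes or for the difference between levels; it gave 28 that rose and 3 that fell in total mRNA, 7 that rose and 5 that fell on ribosomes, and 16 negative differences. For association it gave 25 higher and 5 lower in the mutant, against 33% and 33.9% of all tested genes. In wild type it gave 32 higher and 3 lower, against 37.5% and 37.3%. Shares taken from counts in place of FPKM gave smaller differences for L3 (-2.24 points for RPL3B in total mRNA and -2.33 on ribosomes, mutant minus wild type) and L23A (1.36 points for RPL23AA in total mRNA and -2.14 on ribosomes), in the same direction. The cause of these differences between settings was not tested. With 3 libraries per group, no share could pass 0.05, and the lowest count among the 37 genes, 23, limits AT2G40010.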
